A study of Arabis alpina with 27 samples.

Results

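The *A. alpina* homologs of *RAV1*, *TEMPRANILLO1* (*TEM1*), *TEMPRANILLO2* (*TEM2*) and *ETHYLENE RESPONSE DNA BINDING FACTOR3* (*EDF3*) were followed in stems before, during and after long cold. The members were taken as the rows of the count table that the deposited annotation pairs with the *A. thaliana* loci AT1G13260, AT1G25560, AT1G68840 and AT3G25730. Each locus had 1 row, which gave 4 of the 21641 genes in the table. The rule allowed missing homologs to be filled in from the authors' comparison tables, but none of the 4 needed this. The family itself was chosen by earlier results on these libraries, in which *AaRAV1* was higher in the cold than at 0w, so the levels of *AaRAV1* in the cold are given as a description and not as independent support.

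All plants were of the accession Pajares and were grown for 8 weeks in a glasshouse in long days (LD, 16 h light at 20 °C and 8 h dark at 18 °C). They were harvested then (0w), while still at 4 °C in 5 groups named by their weeks in the cold (4w, 8w, 12w, 16w and 21w), or on return to the glasshouse for 5 days, which followed the 3 longest cold treatments (groups 12w+5dLD, 16w+5dLD, 21w+5dLD). The day length was kept in the cold, so that the return changed temperature and not photoperiod. Each of the 9 groups had 3 libraries, described by the study as biological replicates, and each library pooled pieces of the main stem of several plants, about 2 cm long and taken below the rosette without axillary buds. No plants of the same age were kept warm, so weeks in the cold and age cannot be told apart.

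RAV proteins are plant transcription factors, and the RAV1 and TEMPRANILLO type joins an AP2 domain to a B3 domain, both of which bind DNA. In *A. thaliana* TEM1 and TEM2 repress flowering by binding at *FLOWERING LOCUS T* (*FT*) and by lowering the expression of gibberellin biosynthesis genes. RAV1 restrains growth and the response to abscisic acid, and genes of this group, *EDF3* among them, respond to ethylene. These roles come from *A. thaliana* and were not examined in *A. alpina*.

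The genes are Aa_G164300 (AALP_AA1G146100, *AaRAV1*), Aa_G596330 (AALP_AA1G271200, *AaTEM1*), Aa_G304200 (AALP_AA2G113800, *AaTEM2*) and Aa_G409770 (AALP_AA5G231800, *AaEDF3*). By the chromosome in their locus codes, *AaRAV1* and *AaTEM1* lie on chromosome 1, *AaTEM2* on chromosome 2 and *AaEDF3* on chromosome 5. Coordinates and sequences were not analysed here. No library gave any of the 4 the same count as the gene next to it in the locus order, a check made because coverage-based counting can give overlapping genes 1 value.

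Libraries held between 16.1 and 22.5 M counts. The counts were 926 to 3559 per library for *AaRAV1*, 354 to 2337 for *AaEDF3*, 137 to 1047 for *AaTEM1* and 32 to 169 for *AaTEM2*, so that the last has the largest counting error. Levels are given as CPM, counts scaled to the size of the library, after TMM scaling and are compared between groups for 1 gene, not between genes, since CPM carries no correction for length. A gene was called higher or lower in edgeR's quasi-likelihood test if the adjusted p was under 0.05 and the change 2-fold or more, with p-values adjusted over 19337 tested genes. All 4 passed the filter on low counts. The library labelled 21w+5dLD replicate 3 stood apart. Over the 1000 most variable genes its correlation with the mean of the other libraries of its group was 0.340, the lowest of the 27 libraries. With the mean of 21w it was 0.540. Being closer to another group was not particular to it, since 19 of the 27 libraries were. The other libraries of 21w+5dLD were closer to 16w+5dLD (0.528 and 0.555) than to their own group (0.429 and 0.463). Results that rest on replicate 3 are given with and without it.

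During cold, transcripts of all 4 genes were highest or near their highest after 4 weeks, and those of *AaRAV1*, *AaTEM1* and *AaEDF3* then fell as the cold went on. Against 0w, 4 of the 4 were called higher at 4w, where 5.6% of all tested genes were, and 2 of 4 at 8w (background 6.26%). The 12w group had 1 of 4 (7.07%), the 16w group 0 of 4 (7.07%) and the 21w group 1 of 4 (5.14%). None was called lower at any of the 5 durations, where 7.39%, 9.11%, 9.38%, 10.2% and 7.14% of all tested genes were, from the shortest to the longest. Counted by libraries alone, all of 4w lay above all of 0w for 4 of the 4 genes (25% of tested genes), and so did all of 8w for 4 (26.1%), of 12w for 3 (25.9%), of 16w for 3 (27.1%) and of 21w for 1 (23.1%). At 16w the unadjusted p was under 0.05 for 2 of the 4, and DESeq2 also called 0. *AaRAV1*, known to be higher in the cold when the family was chosen, is counted in these tallies and is the only call at 12w. The tallies are therefore descriptions and not independent support.

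**Figure D1:**
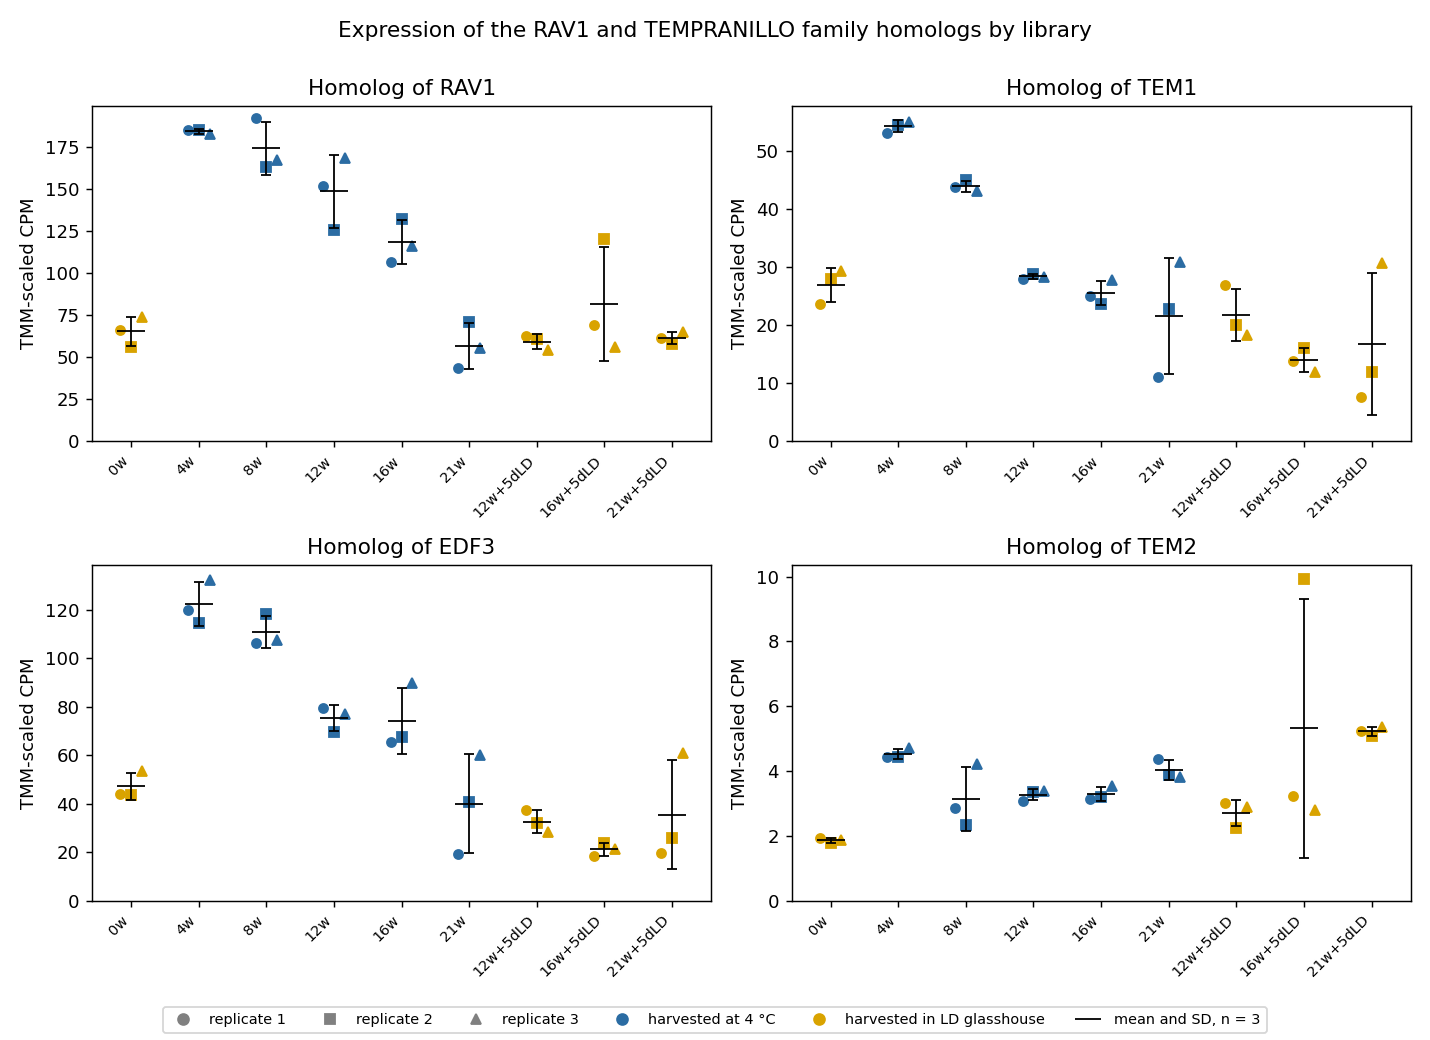
TMM-scaled CPM of the 4 homologs (y axes, each from 0) in the 9 groups (x axes). Points are libraries, with the shape giving the replicate number and the color the place of harvest, and black bars are means with SD (n = 3). *AaRAV1*, *AaTEM1* and *AaEDF3* have their highest group mean at 4w (184.5, 54.2 and 122 CPM), while the *AaTEM2* libraries of 0w lie below the other 24.

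*AaRAV1*, the homolog of a growth-restraining regulator, had 66.2, 56.2 and 73.8 CPM in the libraries of 0w and 185, 185 and 183 CPM in those of 4w. It had 192, 163 and 167 CPM at 8w and 152, 126 and 169 CPM at 12w. Every library of these 3 cold groups was above every library of 0w. The log2 fold changes against 0w were 1.50 ± 0.21 (SE, edgeR adjusted p = 3.05e-05) at 4w, 1.42 ± 0.21 (3.86e-05) at 8w and 1.19 ± 0.21 (0.000194) at 12w.

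At 16w *AaRAV1* had 106, 133 and 116 CPM, still above all 0w libraries, with a log2 fold change of 0.86 (edgeR adjusted p = 0.00303) that was below 2-fold and so was not called. At 21w it had 43.6, 70.8 and 55.4 CPM and overlapped 0w, with a log2 fold change of -0.21 and a 95% interval from -0.64 to 0.23. The order of the group means was 4w, 8w, 12w, 16w, 16w+5dLD, 0w, 21w+5dLD, 12w+5dLD and 21w, and each group shared part of its range with the next. The steps from 8w to 12w, from 12w to 16w and from 16w to 16w+5dLD were each larger than the SD of both groups.

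*AaEDF3*, whose *A. thaliana* counterpart is named for its response to ethylene, had 44.1, 43.6 and 53.5 CPM at 0w and 120, 114 and 132 CPM at 4w. It had 106, 118 and 108 CPM at 8w, again above every 0w library. The log2 fold changes were 1.38 ± 0.34 (SE, edgeR adjusted p = 0.00424) at 4w and 1.23 ± 0.34 (0.0079) at 8w.

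At 12w *AaEDF3* had 79.4, 69.4 and 76.9 CPM and at 16w 65.2, 67.5 and 89.9 CPM. Both groups lay above 0w in every library, but the log2 differences of 0.68 and 0.66 did not pass the test (edgeR adjusted p = 0.127 and 0.136). At 21w the libraries had 19.1, 40.6 and 60.1 CPM, which span a wider range than those of any shorter cold. This spread reaches from below the lowest to above the highest library of 0w.

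*AaTEM1*, the homolog of the repressor of *FT*, had 23.6, 27.9 and 29.3 CPM at 0w, 53.1, 54.5 and 55.0 CPM at 4w and 43.8, 44.9 and 43.0 CPM at 8w. The libraries of 4w and of 8w were all above those of 0w, and those of 4w all above those of 8w. At 4w the log2 fold change was 1.01 ± 0.36 (SE, edgeR adjusted p = 0.0373), a call that lies at the 2-fold limit. It was lost with DESeq2 (0.99), with other scalings (0.99 in both), with a stricter filter (0.99) and without any 1 of the 6 libraries compared (0.92 to 1.07). At 8w the log2 difference of 0.71 did not pass the test (adjusted p = 0.136).

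From 12w on, *AaTEM1* was back in the range of 0w, with 27.9, 28.8 and 28.3 CPM at 12w and 25.1, 23.6 and 27.7 CPM at 16w. At 21w it had 11.1, 22.8 and 30.8 CPM, with a log2 fold change against 0w of -0.32 and a 95% interval from -1.06 to 0.42. As in *AaEDF3*, replicate 1 was the lowest and replicate 3 the highest of the 21w libraries.

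*AaTEM2* had 1.93, 1.79 and 1.85 CPM at 0w, 4.42, 4.43 and 4.70 CPM at 4w and 2.87, 2.32 and 4.22 CPM at 8w. It had 3.07, 3.36 and 3.38 CPM at 12w, 3.13, 3.20 and 3.54 CPM at 16w and 4.38, 3.88 and 3.80 CPM at 21w. All libraries of the 5 cold groups were above all of 0w, and so were those of the 3 returned groups (24 of 24). It was called at 4w (log2 fold change 1.28 ± 0.35 SE, edgeR adjusted p = 0.00858) and at 21w (1.11 ± 0.35, 0.0212). The differences of 0.75, 0.81 and 0.82 at 8w, 12w and 16w did not pass (adjusted p = 0.102, 0.0749 and 0.0699). The call at 21w was lost without 0w replicate 1, 2 or 3 or without 21w replicate 1 (adjusted p from 0.0547 to 0.0642).

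**Figure D2:**
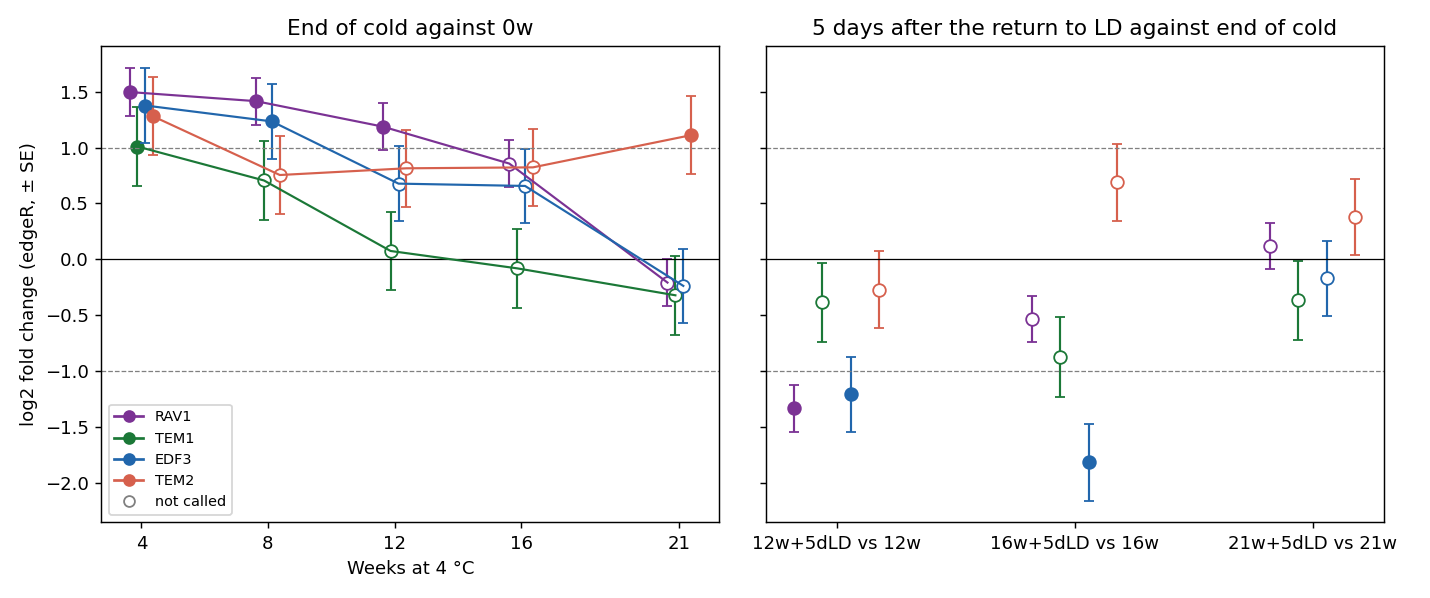
Log2 fold changes with SE from the edgeR fit, for the end of cold against 0w by weeks at 4 °C (left) and for 5 days after the return against the end of cold (right). Filled points were called and open points were not, and dashed lines mark a 2-fold change. *AaRAV1*, *AaTEM1* and *AaEDF3* decline with weeks of cold from 1.50, 1.01 and 1.38 to below 0, while *AaTEM2* ends at 1.11.

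A linear contrast over the 5 cold groups tested whether a gene moved with weeks of cold. It was negative for 3 of the 4 genes, where 6.65% of all tested genes had a negative slope at an adjusted p under 0.05. *AaRAV1* fell by 0.096 per week on the log2 scale (SE 0.011, edgeR adjusted p = 1.02e-05), *AaEDF3* by 0.092 (SE 0.018, 0.00184) and *AaTEM1* by 0.081 (SE 0.019, 0.00691). These slopes are a change of -6.46%, -6.15% and -5.49% per week. The slope of *AaTEM2* was -0.0052 per week (95% interval -0.043 to 0.033, adjusted p = 0.958). Both a call at 4w and a negative slope were found for *AaRAV1*, *AaTEM1* and *AaEDF3*, and for 1.39% of all tested genes. The 4w group had the highest mean of the 9 groups for the same 3 genes and for 9.57% of tested genes. Both counts include *AaRAV1*, whose rise in the cold was known beforehand.

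Of the 40 tests between cold durations, 7 were called, each lower after the longer cold, and each with 21w as the later group. Against 4w, 3 of 4 genes were lower at 21w (background 2.36%), with log2 fold changes of -1.71 for *AaRAV1* (edgeR adjusted p = 3.46e-05), -1.61 for *AaEDF3* (0.0039) and -1.33 for *AaTEM1* (0.0195). Against 8w, 2 of 4 were lower (2%), *AaRAV1* at -1.62 (adjusted p = 5.91e-05) and *AaEDF3* at -1.47 (0.00831). *AaRAV1* alone was called against 12w (-1.40, adjusted p = 0.000552, background 1.36%) and against 16w (-1.07, 0.007, background 0.729%). These comparisons share the 21w libraries and are not independent of each other. Those of *AaRAV1* also use its levels in the cold, known to be raised when the family was chosen.

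The 21w calls of *AaTEM1* and *AaEDF3* rest on libraries that differed widely. Without 21w replicate 1, the lowest, *AaTEM1* at 21w against 4w changed to -1.01 and was no longer called (edgeR adjusted p = 0.111), and *AaRAV1* against 16w changed to -0.90 (0.0526). The *AaTEM1* call was also lost without 21w replicate 2 (-1.37, adjusted p = 0.0518) or 4w replicate 3 (-1.32, 0.0528). That of *AaRAV1* against 16w was also lost without 16w replicate 2 (-0.97, below 2-fold). When only the groups compared were fitted, 4 of the 40 tests were called. The 21w calls of *AaTEM1* and *AaEDF3* against 4w, of *AaEDF3* against 8w and of *AaRAV1* against 16w were lost (adjusted p from 0.0785 to 0.0993), while *AaTEM1* at 16w against 4w, with a log2 fold change of -1.09 in both fits, gained the call (0.00932 against 0.0813).

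At 5 days after the return to LD *AaRAV1* and *AaEDF3* were lower than at the end of 12 weeks of cold, and *AaEDF3* was also lower after 16 weeks. Against the end of cold, 2 of 4 genes were lower after 12 weeks (background 4.88%), 1 of 4 after 16 weeks (4.56%) and 0 of 4 after 21 weeks (0.176%), and none was called higher (5.77%, 6.83% and 0.217%). All libraries of the returned group lay below all of the end of cold for 4 of 4 genes after 12 weeks (21.6% of tested genes) and for 2 of 4 after 16 weeks (22.9%), and 1 of 4 lay above after 21 weeks (6.83%). After 21 weeks none of the 4 had an unadjusted p under 0.05, and DESeq2 also called 0. Across all genes, 76 were called in the comparison after 21 weeks and 1143 without 21w+5dLD replicate 3.

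After 12 weeks *AaRAV1* had 62.6, 60.7 and 54.1 CPM at 12w+5dLD, below all libraries of 12w, with a log2 fold change of -1.33 ± 0.21 (SE, edgeR adjusted p = 0.000142). *AaEDF3* had 37.4, 31.9 and 28.3 CPM, also below all libraries of 12w, with -1.21 ± 0.34 (0.0118). This second call was lost without 12w+5dLD replicate 3 (-1.11, adjusted p = 0.0543). *AaTEM1* had 26.8, 19.9 and 18.3 CPM and *AaTEM2* 3.00, 2.24 and 2.88 CPM, and both were below their 12w libraries, with differences of -0.39 and -0.27 that did not pass (adjusted p = 0.477 and 0.63). The fall of *AaRAV1* starts from its level in the cold, known beforehand to be raised, and is therefore a description.

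After 16 weeks *AaEDF3* had 18.3, 23.6 and 21.4 CPM at 16w+5dLD, its lowest group mean, and was lower than in 16w, with a log2 fold change of -1.82 ± 0.34 (SE, edgeR adjusted p = 0.000737). *AaTEM1* had 13.7, 16.0 and 11.9 CPM, again its lowest group mean and below every 16w library, with a difference of -0.87 that did not pass (adjusted p = 0.0746). *AaRAV1* had 69.3, 120 and 56.0 CPM and *AaTEM2* 3.22, 9.92 and 2.80 CPM. Replicate 2 was far above the other libraries for these 2 genes but not for *AaTEM1* and *AaEDF3*. For *AaRAV1* the group overlapped 16w, with a log2 difference of -0.53 (adjusted p = 0.0623).

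After 21 weeks *AaRAV1* had 61.3, 58.1 and 65.2 CPM at 21w+5dLD, within the range of 21w. *AaTEM1* had 7.64, 11.8 and 30.6 CPM and *AaEDF3* 19.7, 25.7 and 61.0 CPM, and in both genes replicate 3 was more than 2-fold above the other libraries of its group. Without that library *AaTEM1* was lower than in 21w, with a log2 fold change of -1.15 (edgeR adjusted p = 0.00956) against -0.37 with it (0.685). *AaTEM2* had 5.24, 5.07 and 5.36 CPM, above each 21w library, with a log2 difference of 0.38 that did not pass (adjusted p = 0.652).

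The change on return was compared between cold durations as an interaction, in 12 tests of which 1 was called. For *AaRAV1* the change after 21 weeks minus that after 12 weeks was 1.45 on the log2 scale (SE 0.29, edgeR adjusted p = 0.0125, background 1.94% in that direction). It was no longer called when only the groups compared were fitted (1.43, adjusted p = 0.0829). *AaRAV1* differed by 0.057 between 21w+5dLD and 12w+5dLD (edgeR adjusted p = 0.964) and by -1.40 between 21w and 12w (0.000552). The difference thus lay mainly between the levels at the end of cold. That *AaRAV1* was higher in the cold was known when the family was chosen. For *AaEDF3* the change after 21 weeks minus that after 16 weeks was 1.65 (SE 0.48, adjusted p = 0.0772), which passed with DESeq2 (1.63, adjusted p = 0.0115). With 1 library left out it ranged from 1.00 to 2.08 in edgeR. It passed without 21w replicate 3 (adjusted p = 0.0294) or 21w+5dLD replicate 1 (0.0239) and without no other library. Replicate 3 held by far the highest *AaEDF3* value of 21w+5dLD.

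Set against 0w, the returned groups held 3 calls in 12 tests. At 16w+5dLD *AaEDF3* was lower, with a log2 fold change of -1.16 ± 0.34 (SE, edgeR adjusted p = 0.0223, background 3.54%), a call lost without 0w replicate 3 or without 16w+5dLD replicate 1 or 3. *AaTEM2* was higher at 16w+5dLD by 1.51 (adjusted p = 0.00486, background 4.2%) and at 21w+5dLD by 1.49 (0.00515, background 3.69%). The first of these rests on replicate 2, without which it was 0.69 (adjusted p = 0.0767). *AaRAV1* was not called in any returned group, with 95% intervals of -0.58 to 0.29 for 12w+5dLD, -0.11 to 0.76 for 16w+5dLD and -0.52 to 0.35 for 21w+5dLD. Beyond *AaTEM2*, whose libraries were all above those of 0w in 12w+5dLD (18.4% of tested genes), 16w+5dLD (18.3%) and 21w+5dLD (15.6%), all libraries lay below 0w for *AaEDF3* in 12w+5dLD (22.6%) and for *AaTEM1* and *AaEDF3* in 16w+5dLD (22.9%). At 12w+5dLD 0 of the 4 genes were called (background 6.88% in either direction), with 0 at an unadjusted p under 0.05 and 0 by DESeq2.

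Without 21w+5dLD replicate 3, 5 of these 12 tests were called in place of 3, the added ones being *AaTEM1* (-1.47, edgeR adjusted p = 0.00155) and *AaEDF3* (-1.06, 0.0191), both lower at 21w+5dLD than at 0w. Between the 3 returned groups 0 of 12 tests were called (background 0.14%, 2.46% and 0.74% for the 3 pairs in either direction), while 4 had an unadjusted p under 0.05 and DESeq2 called 0. With the same library left out, *AaTEM1* was called lower at 21w+5dLD than at 12w+5dLD (-1.16, edgeR adjusted p = 0.0238).

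Averaged over groups, the 5 cold groups stood above the 4 groups from LD in 1 of the 4 genes at 2-fold or more (background 4.83%). This was *AaEDF3*, with a log2 difference of 1.27 (SE 0.16, edgeR adjusted p = 2.25e-06). *AaRAV1* (0.93, adjusted p = 2.48e-07) and *AaTEM1* (0.77, 0.000814) were higher at an adjusted p under 0.05 but by less than 2-fold, as 24.2% of tested genes were higher without the fold limit. *AaTEM2* differed by 0.07 (95% interval -0.27 to 0.41). *AaRAV1* was known to be higher in the cold when the family was chosen, so its value here is a description and not independent support.

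*AaTEM1* and *AaEDF3* moved together from library to library as well as from group to group. In log2(CPM + 1) their Pearson r was 0.933 over the 27 libraries and 0.939 over the 9 group means. For *AaRAV1* it was 0.821 with *AaEDF3* and 0.720 with *AaTEM1* over the libraries. Over all 27 libraries *AaTEM2* stood apart, with 0.163 against *AaRAV1*, -0.155 against *AaTEM1* and -0.108 against *AaEDF3*. Within groups, after the group means were taken off, r was 0.950 for *AaTEM1* with *AaEDF3* and 0.623 for *AaRAV1* with *AaTEM2*, above the 0.361 and 0.366 of *AaRAV1* with *AaTEM1* and *AaEDF3*. For both genes of the second pair 16w+5dLD replicate 2 was far above its group. The libraries of a group share their plants' treatment and all values of a library share its scaling, so these values are descriptions without a test.

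The ratio of *AaEDF3* to *AaTEM1* CPM shows how far the pair kept in step. It was 1.56 to 1.87 in the libraries of 0w, 2.10 to 2.40 in 4w, 2.43 to 2.63 in 8w, 2.41 to 2.85 in 12w and 2.60 to 3.25 in 16w. It was 1.73 to 1.95 in 21w, 1.39 to 1.60 in 12w+5dLD, 1.33 to 1.80 in 16w+5dLD and 1.99 to 2.58 in 21w+5dLD. The ratios of 4w to 16w were thus all above those of 0w, and those of 21w overlapped 0w. Within 21w the CPM of both genes differed more than 2-fold between libraries while the ratio stayed within this narrow range.

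**Figure D3:**
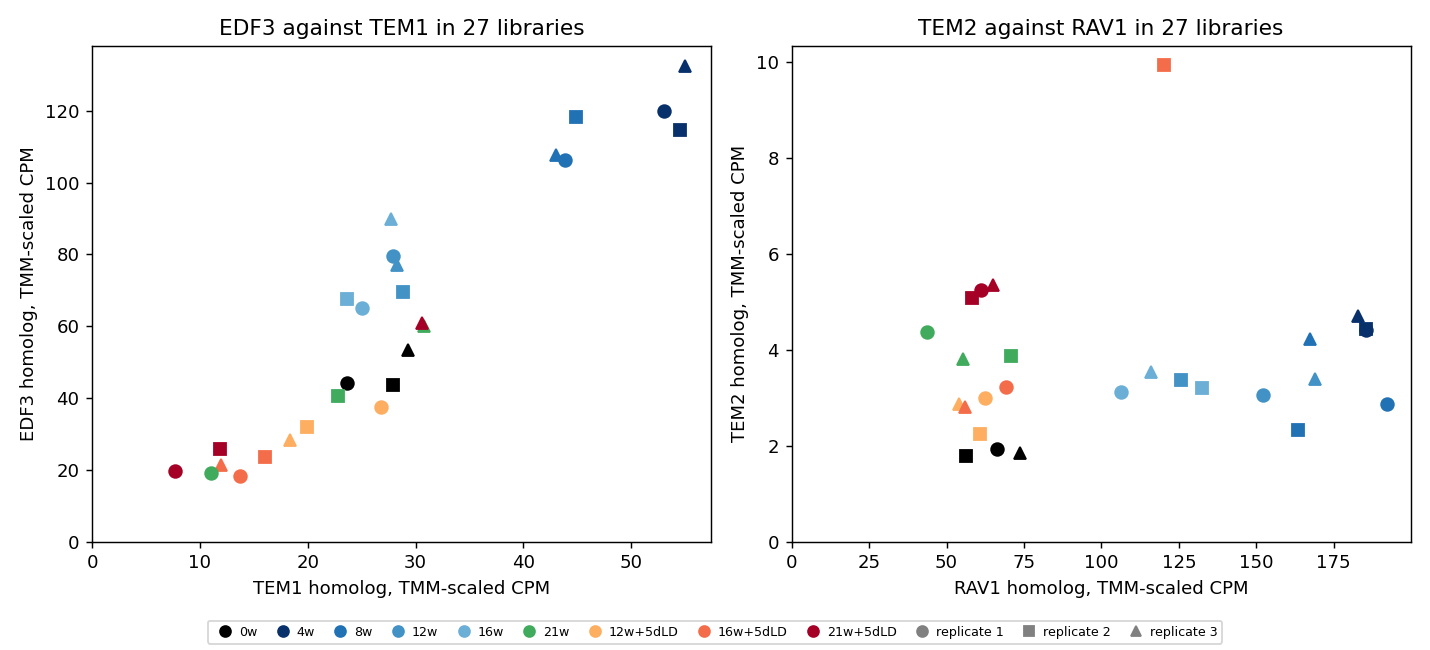
CPM of *AaEDF3* against *AaTEM1* (left) and of *AaTEM2* against *AaRAV1* (right), 1 point per library, with color for the group and shape for the replicate number. On the left the points follow a rising band (r = 0.933), and 21w+5dLD replicate 3 (30.6 and 61.0 CPM) lies on 21w replicate 3 (30.8 and 60.1 CPM). On the right 16w+5dLD replicate 2 is alone at 120 and 9.92 CPM.

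Genes whose course over the 27 libraries was most like that of a member were taken from 10416 tested genes with a homolog, a mean of at least 5 CPM and no count of 0. For *AaRAV1* these were the homologs of AT5G17490, which encodes the DELLA protein RGL3, a repressor of gibberellin responses (Aa_G192670, r = 0.945), of AT3G45260 (Aa_G648010, 0.937) and of AT5G04340, which encodes the zinc finger protein ZAT6 (Aa_G181570, 0.931). The *RGL3* homolog had mean CPM of 11.6 in 0w, 34.2 in 4w, 35.1 in 8w, 29.7 in 12w, 27.2 in 16w and 11.9 in 21w. It thus had the same high start and low end in the cold as *AaRAV1*, with 10.4, 11.4 and 9.41 CPM in the 3 returned groups.

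For *AaEDF3* the most alike were the homologs of AT4G26130 (Aa_G43050, r = 0.968), of AT1G47710, which encodes the protease inhibitor SERPIN1 (Aa_G29410, 0.958), and of AT5G61590, an ERF transcription factor gene (Aa_G401150, 0.947). AT4G26130 was also among the 3 for *AaTEM1* (0.863), beside AT2G02100 (Aa_G323370, 0.876) and AT5G57630, which encodes the protein kinase CIPK21 (Aa_G228190, 0.867). In 1 library AT2G02100 had the same count as a neighbouring gene. For *AaTEM2* the values were lower, at 0.834 for AT1G18300 (Aa_G55240), 0.811 for AT5G45340, which encodes the abscisic acid hydroxylase CYP707A3 (Aa_G290950), and 0.801 for AT3G19580, which encodes the zinc finger protein AZF2 (Aa_G164420).

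The flowering genes around TEMPRANILLO in *A. thaliana* were examined as a list of 15 loci, of which 10 had a row and 9 were tested. Against 0w, 2, 4, 3, 2 and 1 of the 9 were called higher from the shortest to the longest cold and none lower, where 5.6%, 6.26%, 7.07%, 7.07% and 5.14% of all tested genes were called higher. The median log2 fold change of the 9 was 0.65, 1.31, 1.13, 1.03 and 0.33 in this order, against -0.024, -0.021, -0.0080, -0.022 and -0.0028 over all tested genes. After the return, 5 of 9 were lower after 12 weeks (background 4.88%), 5 after 16 weeks (4.56%) and 0 after 21 weeks, a comparison in which 0.176% of all tested genes were called lower. The last count includes 21w+5dLD replicate 3, and the list was not counted without that library.

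*FT*, the target of TEM1 and TEM2, was at a count of 0 in 26 of the 27 libraries and had 2 counts in 21w+5dLD replicate 3. It was not tested, and no row paired with *FLC*, whose *A. alpina* homolog *PEP1* represses flowering, was analysed here. *SOC1*, a promoter of flowering, rose from 5.37 to 15.2 CPM at 0w to 24.2 to 40.0 at 4w and 82.5 to 141 CPM at 21w, with a log2 fold change at 21w of 3.35 (edgeR adjusted p = 8.01e-06). *AaRAV1*, *AaTEM1* and *AaEDF3* declined over the same weeks, but the mean of *SOC1* changed little late in the cold (104, 108 and 113 CPM at 12w, 16w and 21w). Of the 9 tested flowering genes listed, 1 had a rising and 3 a falling slope over the weeks of cold (background 6.01% and 6.65%).

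On return *SOC1* fell by 1.53 on the log2 scale after 12 weeks (edgeR adjusted p = 0.00533) and by 1.51 after 16 weeks (0.00578). *GI*, a clock-associated gene of the photoperiod pathway, was called higher at 8w only (log2 fold change 1.35, adjusted p = 0.0353) and fell on return by 1.92 (0.00607) after 12 weeks and by 2.08 (0.00374) after 16 weeks. After 21 weeks *SOC1* had 36.1, 48.8 and 123 CPM in 21w+5dLD against 141, 114 and 82.5 in 21w. *GI* had 90.7, 218 and 449 CPM against 163, 361 and 336. For both genes replicate 3 was the highest of 21w+5dLD. *CO*, the photoperiod activator of *FT*, had 3.08 to 5.93 CPM at 16w and a count of 0 in all 3 libraries of 16w+5dLD (adjusted p = 0.0377). It was also at 0 in all 3 libraries of 4w, and its fitted fold changes are not given.

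*SMZ*, an AP2-type repressor of flowering in *A. thaliana*, is given here after its values were seen, since it was outside the rule for named genes. Its libraries had 14.7 to 19.6 CPM in 0w, 44.2 to 54.1 in 4w, 39.4 to 47.7 in 8w and 19.4 to 20.7 CPM in 21w. It was called higher at 4w (log2 fold change 1.48, edgeR adjusted p = 0.00069) and not at 21w (0.22, 0.633), as were *AaRAV1*, *AaTEM1* and *AaEDF3* and 2.83% of all tested genes. The AP2-type genes *AP2*, *TOE1* and *TOE3* of the same list did not share the course of *SMZ*. From 0w to 4w their means went from 88.7 to 85.9, from 114 to 126 and from 4.08 to 8.35 CPM. The highest group mean was at 12w for *AP2* and *TOE1* and at 12w+5dLD for *TOE3*.

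Other lists drawn from the known partners and targets of the family held few calls. Of the other relatives with a B3 domain, 9 loci of which 8 had a row and 3 were tested, 0, 0, 1, 2 and 2 were called higher from the shortest to the longest cold and 1 lower at 16w, and none of those called had a group mean of 5 CPM. The background was 5.14% to 7.07% higher in these comparisons and 10.2% lower at 16w, and 3 tested genes are too few to set against it. None of 4 tested gibberellin synthesis genes, 13 ethylene signalling genes, 2 abscisic acid partners and 4 TOPLESS corepressors was called in the 5 comparisons of the end of cold with 0w or on return. Rising slopes with weeks of cold were found in 3 of the 13 ethylene genes (background 6.01%). The same held for 1 of the 2 abscisic acid partners and 1 of the 4 TOPLESS corepressors. In the cold against LD means 1 gibberellin gene was called higher (4.83%) and 1 ethylene gene lower (8.78%). At 16w+5dLD 1 abscisic acid partner was called higher than at 0w (4.2%). Of 4 tested trichome genes 1 was called lower at 12w (background 9.38%), 16w (10.2%) and 21w (7.14%), at a group mean under 5 CPM.

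The tissue was checked with marker genes, since in bulk stems fewer cells of a type and less RNA per cell cannot be told apart. The xylem genes *CESA4*, *CESA7* and *CESA8* (3 of 3 with a row) summed to 1812 to 2326 CPM in 0w, 266 to 390 in 4w, 0 to 87.9 in 12w and 148 to 532 in 21w. After the return they summed to 99.2 to 921, 732 to 1208 and 469 to 1042 CPM. *CESA4* alone ran from 0 to 74.1 CPM within 8w, 0 to 38.0 within 12w and 0 to 119 within 16w. It ran from 0 to 210 CPM within 21w and 0 to 393 within 12w+5dLD. Whether the counting had a part in these zeros was not tested. The phloem genes *SUC2*, *APL* and *SEOR1* (3 of 3) summed to 260 to 295 CPM in 0w, 179 to 248 in 4w and 139 to 154 in 8w. They summed to 118 to 149 CPM in 12w, 152 to 180 in 16w and 183 to 218 in 21w. After the return the sums were 57.1 to 134, 169 to 243 and 233 to 254 CPM. Against 0w, 1 of the 3 was called lower at 8w (background 9.11%), 12w (9.38%) and 12w+5dLD (3.64%). The cambium genes *WOX4*, *PXY* and *HB8* (3 of 3) summed to 534 to 582 CPM in 0w, 385 to 445 in 4w, 424 to 473 in 8w, 434 to 508 in 12w, 517 to 556 in 16w and 719 to 847 in 21w, and after the return to 301 to 488, 511 to 614 and 608 to 775 CPM. The sum was thus higher at 21w than at 4w, the reverse of *AaRAV1*, *AaTEM1* and *AaEDF3*, and 2 of 3 had a rising slope (edgeR, background 6.01%), *HB8* at 0.104 per week on the log2 scale (adjusted p = 1.15e-06) and *PXY* at 0.031 (0.0121). *HB8* was also called higher at 21w than at 0w (log2 fold change 1.32, adjusted p = 3.94e-05). Of the flower and bud genes *AG*, *AP3*, *PI* and *BRC1* 2 of 4 had a row and summed to at most 3.76 CPM, with *BRC1* under 1 CPM throughout, and none of 3 root cap and root hair genes had a row. The part of these shifts in the members' values was not tested.

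Of 3 genes for green tissue, 2 had a row, and only 1 of these moved with the members. *LHCB1.3*, which encodes a light-harvesting protein of photosystem II, had 5095 to 5262 CPM in 0w, 24517 to 27370 in 4w, 15108 to 16643 in 8w, 12835 to 16765 in 12w and 17265 to 18868 CPM in 16w. Its libraries had 5385, 11657 and 11815 CPM in 21w. They had 4400 to 4858 CPM in 12w+5dLD, 3768 to 4386 in 16w+5dLD and 3749, 3959 and 11089 CPM in 21w+5dLD. The low 21w replicate 1 and the high 21w+5dLD replicate 3 were thus the same libraries as for *AaTEM1* and *AaEDF3*. *PSBO1*, a subunit of the oxygen-evolving complex, had 832 to 888 CPM at 0w and 642 to 721 at 4w. The part of green tissue in the members' values was not tested, and reads of near-identical LHCB copies may have been split by the counting.

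**Figure D4:**
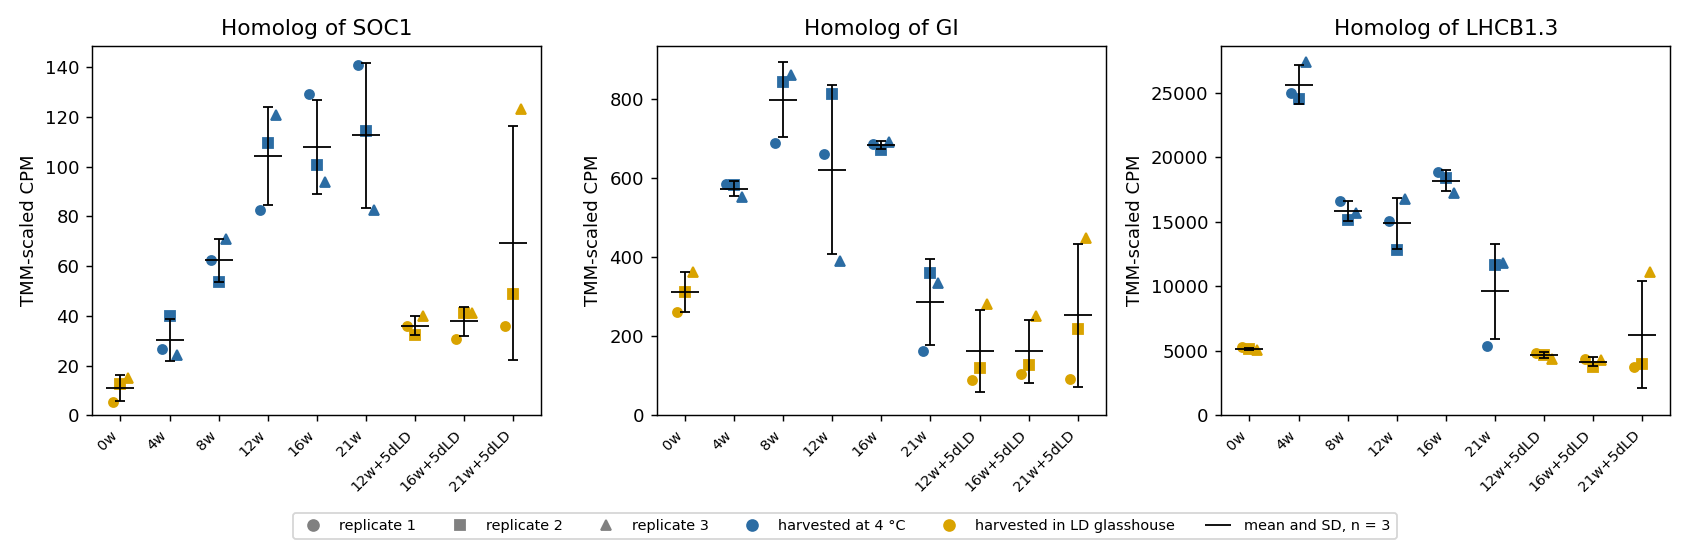
TMM-scaled CPM of *SOC1*, *GI* and *LHCB1.3* (y axes, each from 0) in the 9 groups (x axes), drawn as for the 4 homologs, with bars for mean and SD (n = 3). *SOC1* climbs with weeks of cold to 82.5 to 141 CPM at 21w, whereas *LHCB1.3* peaks at 4w with 24517 to 27370 CPM and is low in 21w replicate 1 (5385 CPM).

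The stability of the 26 called changes was looked at under all alternatives. Of 413 values taken for them, 383 kept their direction and their call, 30 lost the call and 0 changed sign. The 413 include, for each change, the reported fit read without the 2-fold limit, where a called change cannot lose its call or sign. The lost calls included 10 for *AaTEM1* at 4w against 0w.

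**Figure D5:**
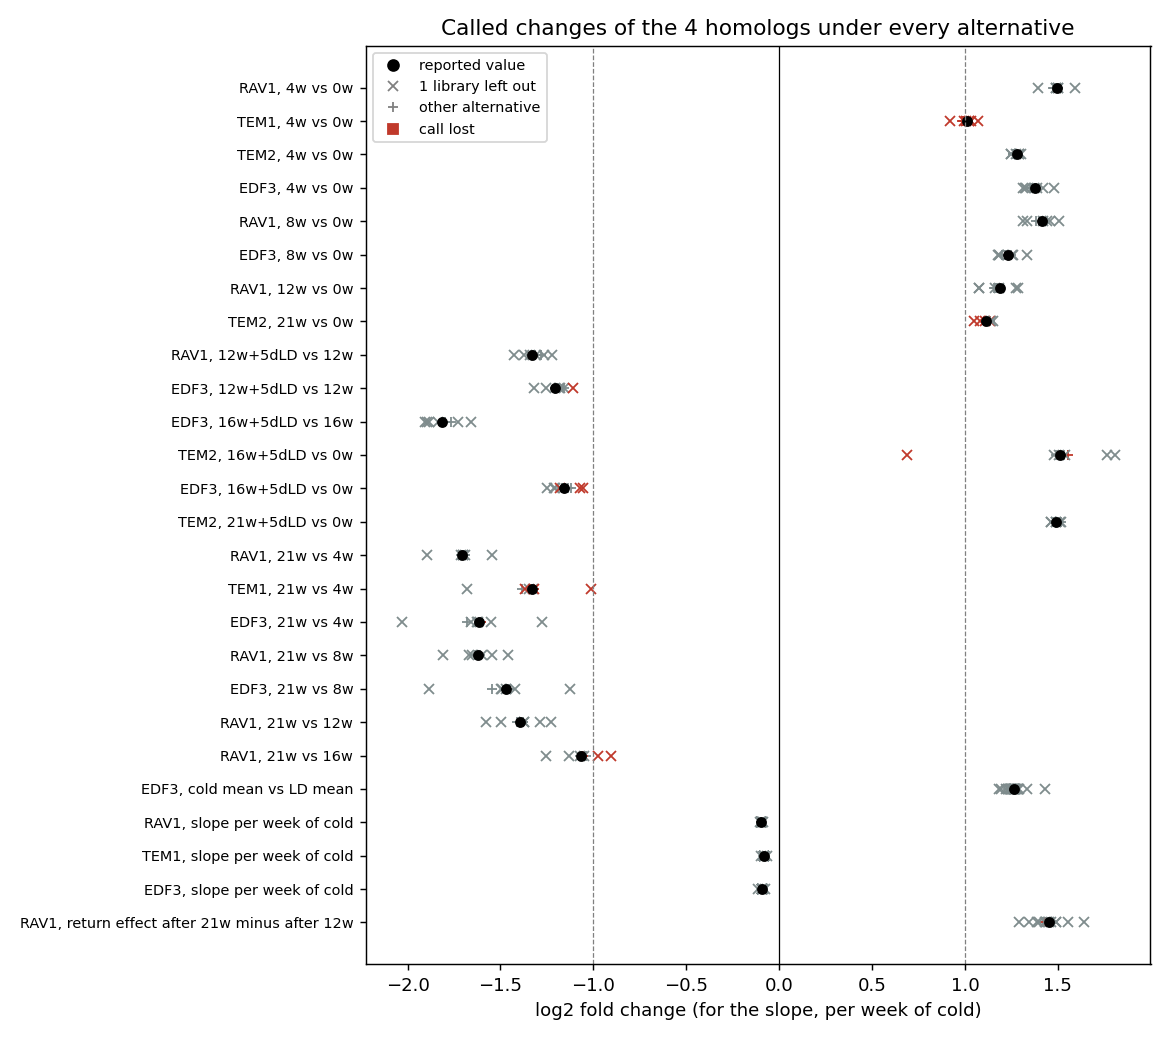
Every called change of the 4 homologs (rows) as log2 fold change, or as slope per week, for the reported value (black) and under each alternative (crosses, red where the call was lost). Dashed lines mark a 2-fold change. The red marks for *AaTEM1* at 4w gather at the 2-fold line (0.92 to 1.07), and *AaTEM2* at 16w+5dLD has 1 value far from the others, at 0.69 without replicate 2.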

How the data were processed

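Poly-A RNA from stems was sequenced as 150-bp single-end reads from strand-specific libraries. The authors aligned them with HISAT2, quantified transcripts with StringTie and deposited raw counts per gene that StringTie's script derives from coverage. Not given in the sources used here: versions, genome build, and whether counting used strand. The authors' 18 deposited comparison tables hold their DESeq2 fold changes and adjusted p-values, which were not used. Only the other kind of entry there, the homolog IDs, was read.

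In R 4.3.3 with edgeR 4.0.16, counts were scaled by TMM, filtered with filterByExpr and fitted as 9 group means over 27 libraries (18 residual degrees of freedom). P-values were adjusted by Benjamini-Hochberg over 19337 genes. Fold calls needed 2-fold and an adjusted p under 0.05, while slopes and interactions needed the p alone. SE is the log2 fold change divided by the root of F. The fit was tested on simulated data for 4w against 0w only, and slopes and interactions were not checked. The simulated spread between libraries (dispersion 0.05) was smaller than the common dispersion of these counts (0.417). Depth was 16.1 to 22.5 M counts per library.

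The members and lists were chosen with earlier results of these data known. Of listed genes, the text names up to 3 a list that were called against 0w or on return and reached 5 CPM, plus *FT* and *FLC*. For likeness it names the 3 highest r of log2(CPM + 1). The lists were RAV relatives, flowering, gibberellin, ethylene, abscisic acid, TOPLESS, trichome and tissue markers. Alternatives were DESeq2 1.42.0, other scalings and filters, no fold limit, a fit of the groups compared, a replicate block and leaving out each library.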

Additional observations from a re-analysis of the deposited data

Results flagged for a closer look

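*AaRAV1* was flagged because its change on return differed between cold durations. It was 1.45 higher on the log2 scale after 21 weeks than after 12 weeks (edgeR interaction, SE 0.29, adjusted p = 0.0125), with all 3 libraries of 12w+5dLD below and all 3 of 21w+5dLD above the mean of their end of cold, which gives the same difference of 1.45. The change after 21 weeks was itself only 0.12 (edgeR adjusted p = 0.876), and 21w+5dLD differed from 12w+5dLD by 0.057 (0.964). The interaction thus lay mainly in the lower level of *AaRAV1* at 21w than at 12w (-1.40, edgeR adjusted p = 0.000552). *AaTEM2* was flagged for the same pattern of opposite directions after 12 and 21 weeks, with a difference of 0.65 that did not pass the interaction test (95% interval -0.37 to 1.67, adjusted p = 0.549).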

How the results depend on the processing

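Over all alternatives the 26 called changes kept their sign, and 30 of 413 values lost the call. Reading the reported fit without the 2-fold limit is among these alternatives and could change neither. The number of calls against 0w in the cold fell from 8 to 5 with a stricter filter, which removed *AaTEM2* and took *AaTEM1* at 4w to 0.99 (log2), below 2-fold, and that of the returned groups against 0w from 3 to 1. With only the groups compared in the fit, calls between cold durations fell from 7 to 4 and interactions from 1 to 0, and DESeq2 gave 2 interactions. Without the 2-fold limit the comparison of cold with LD means gave 3 calls in place of 1.

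Leaving out each library in turn gave 2 to 5 calls of returned groups against 0w, 0 to 1 between returned groups, 1 to 2 for cold against LD means and 1 to 2 interactions. The changes of sign all concerned values that were not called. With 1 library left out, *AaTEM1* at 12w against 0w ranged from -0.022 to 0.13, *AaEDF3* at 21w against 0w from -0.66 to 0.10, and *AaTEM2* at 16w+5dLD against 16w from -0.13 to 0.98. At 21w+5dLD against 21w, *AaRAV1* ranged from -0.041 to 0.31 and *AaEDF3* from -0.82 to 0.25. Against 0w, *AaRAV1* ranged from -0.067 to 0.52 at 16w+5dLD and from -0.18 to 0.012 at 21w+5dLD. For *AaTEM2* the cold against LD means ranged from -0.0039 to 0.28 and the slope from -0.0094 to 0.0013.

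In the check for pairing by replicate number, 0 of 36 pairs of groups had all 3 same-numbered correlations over 0.1. *GI*, a clock-associated gene, nevertheless rose from replicate 1 to replicate 3 in every group from LD. It had 262, 312 and 363 CPM in 0w and 88.4, 120 and 282 CPM in 12w+5dLD. It had 106, 126 and 252 CPM in 16w+5dLD and 90.7, 218 and 449 CPM in 21w+5dLD. In the cold the same order was seen in 8w only. Whether same-numbered libraries shared a time of harvest was not tested. With the replicate number as a block, 8 calls against 0w in the cold, 3 on return, 3 of returned groups against 0w, 7 between cold durations, 0 between returned groups, 1 for cold against LD means, 3 slopes and 1 interaction were found. Across all genes, those called at 21w+5dLD against 21w numbered 76 with edgeR, 641 with DESeq2, 13 with the block and 11 to 1143 with 1 library left out. Counting error limits *AaTEM2* most, at 32 to 169 counts a library. With library totals in place of TMM, 6 of 36 group levels moved by more than their SD.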
